A study of Saccharomyces cerevisiae with 18 samples.

Results

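RNA of the diosgenin-producing yeast strain LP118 was compared with that of the strain LP085-Vc after 6 h of flask culture, with 3 libraries of each strain, so that 6 of the 18 libraries of the series entered the comparison. Both strains are Saccharomyces cerevisiae of the BY4742 background, a haploid laboratory strain of mating type alpha, and the labels name no engineered genes or clones and do not say what Vc stands for. Diosgenin is a plant steroid that yeast does not make by itself, and the third strain of the series, LP104-17, is labelled as a producer like these 2, so no strain is labelled as a non-producing control. The cells were grown overnight, brought to an OD600 of 0.1 in 15 mL of synthetic dextrose complete medium with 2% (w/v) glucose, and shaken at 250 rpm and 30 °C until harvest. All 6600 genes of the deposited tables were considered, and the 323 genes of chromosome V and the 241 genes of chromosome IX were described apart from the rest. Whether the replicates of a strain were grown in separate flasks is not labelled, so p-values speak for the scatter among these libraries alone, which may be technical.

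A yeast cell that grows fast on glucose spends much of its transcription on ribosomes: RNA polymerase I makes the ribosomal RNA precursor, nucleolar factors and helicases cut, modify and fold it, and ribosomal proteins are added on the way out of the nucleus. When growth slows, these genes are turned down together, while genes of glycogen, trehalose, chaperones and antioxidant enzymes are turned up, many of them through the stress factors Msn2 and Msn4. Genes of ribosome assembly often carry the promoter elements PAC and RRPE, the stress genes carry the stress response element STRE, and other regulons have elements of their own, such as the Gcn4 site of amino acid synthesis genes and the inositol-sensitive element UASINO of phospholipid genes. Yeast makes sterols from acetyl-CoA through mevalonate and squalene, and that route also supplies the precursors of introduced steroids.

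Promoter windows of 9 genes are shown because these genes stand for the groups that differed between the strains. Each window is the 250 bases from 300 to 51 bases upstream of the annotated gene start, read from the RefSeq genome of build R64 in the direction of the gene, with matches to the motif on either strand in capitals. NSR1 (chrVII:807707-807956, minus strand), UTP25 (chrIX:193246-193495, minus strand) and NUG1 (chrV:162423-162672, plus strand) are ribosome assembly genes on chromosome VII, IX and V, and their capitals mark 1 PAC and 1 RRPE match each:
NSR1: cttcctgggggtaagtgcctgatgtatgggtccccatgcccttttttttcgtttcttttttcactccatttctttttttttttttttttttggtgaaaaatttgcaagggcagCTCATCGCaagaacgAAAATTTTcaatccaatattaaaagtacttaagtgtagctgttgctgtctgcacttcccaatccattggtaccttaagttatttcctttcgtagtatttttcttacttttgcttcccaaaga
UTP25: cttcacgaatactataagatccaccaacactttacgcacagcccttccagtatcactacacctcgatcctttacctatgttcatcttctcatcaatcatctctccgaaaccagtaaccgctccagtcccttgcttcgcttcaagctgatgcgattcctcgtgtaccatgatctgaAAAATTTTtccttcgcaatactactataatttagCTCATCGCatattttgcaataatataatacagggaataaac
NUG1: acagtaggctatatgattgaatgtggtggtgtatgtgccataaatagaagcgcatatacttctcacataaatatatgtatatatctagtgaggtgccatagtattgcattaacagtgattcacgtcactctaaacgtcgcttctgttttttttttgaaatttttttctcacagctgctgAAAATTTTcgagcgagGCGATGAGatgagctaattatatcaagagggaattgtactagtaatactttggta
The windows of 3 genes that were lower in LP118, SPI1 (chrV:468070-468319, plus strand), FMP16 (chrIV:588430-588679, minus strand) and PGM2 (chrXIII:477657-477906, minus strand), carry STRE in capitals:
SPI1: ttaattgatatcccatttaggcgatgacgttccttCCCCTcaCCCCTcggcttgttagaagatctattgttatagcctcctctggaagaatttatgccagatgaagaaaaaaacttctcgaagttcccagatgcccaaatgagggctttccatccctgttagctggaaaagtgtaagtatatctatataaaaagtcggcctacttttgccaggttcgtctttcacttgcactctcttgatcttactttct
FMP16: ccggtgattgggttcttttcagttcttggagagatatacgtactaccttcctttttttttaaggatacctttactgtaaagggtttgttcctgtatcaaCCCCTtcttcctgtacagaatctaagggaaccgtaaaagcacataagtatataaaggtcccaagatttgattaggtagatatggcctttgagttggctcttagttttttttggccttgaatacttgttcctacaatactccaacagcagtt
PGM2: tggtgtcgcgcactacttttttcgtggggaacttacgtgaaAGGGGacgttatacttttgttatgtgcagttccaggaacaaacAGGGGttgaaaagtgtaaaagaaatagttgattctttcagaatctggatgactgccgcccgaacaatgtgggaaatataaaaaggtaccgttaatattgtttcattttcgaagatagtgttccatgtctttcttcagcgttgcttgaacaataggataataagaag
Amino acid and phospholipid genes are represented by LEU9 (chrXV:522727-522976, plus strand, Gcn4 site), MET17 (chrXII:732242-732491, plus strand, Cbf1 site) and INO1 (chrX:135984-136233, minus strand, 2 UASINO elements):
LEU9: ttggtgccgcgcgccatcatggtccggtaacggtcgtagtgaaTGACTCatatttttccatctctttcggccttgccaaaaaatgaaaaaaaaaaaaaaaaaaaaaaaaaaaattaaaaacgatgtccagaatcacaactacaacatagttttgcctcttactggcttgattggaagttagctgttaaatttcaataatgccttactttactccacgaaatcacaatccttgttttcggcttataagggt
MET17: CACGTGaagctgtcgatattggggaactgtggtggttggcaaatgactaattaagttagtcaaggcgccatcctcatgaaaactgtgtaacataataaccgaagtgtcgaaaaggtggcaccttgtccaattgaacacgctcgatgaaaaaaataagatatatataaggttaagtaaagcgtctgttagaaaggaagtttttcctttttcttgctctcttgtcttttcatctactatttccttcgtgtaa
INO1: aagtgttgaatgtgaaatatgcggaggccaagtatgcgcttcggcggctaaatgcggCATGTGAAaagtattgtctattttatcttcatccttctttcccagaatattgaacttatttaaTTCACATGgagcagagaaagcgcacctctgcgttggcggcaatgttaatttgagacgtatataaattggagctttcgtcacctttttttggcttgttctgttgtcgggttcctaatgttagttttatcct

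Transcript levels are given in CPM, the gene's counts scaled to the library's total after TMM normalisation, and differences as the log2 fold change of LP118 over LP085-Vc ± its standard error. Total counts were 6289504, 6627332 and 7548113 in the LP085-Vc libraries and 5117869, 5184521 and 5333640 in the LP118 libraries. A gene was called at an adjusted p below 0.05, and 4049 of 6131 tested genes (66.0%) were called, 1974 higher in LP118 (32.2%) and 2075 lower (33.8%). At least 2-fold changes numbered 854 up (13.9%) and 785 down (12.8%) among the called genes. The libraries of the groups did not overlap in 70.1% of the tested genes, and genes named for the size of their change were chosen among these. With this many calls, the size and the uniformity of a group's change say more than its being called. Genes of alpha cells were expressed in both strains, MF(ALPHA)1, the main alpha-factor gene, at 1107, 1323 and 1279 CPM in LP085-Vc and 1449, 1298 and 1211 CPM in LP118. The a-factor gene MFA1 did not pass 2.11 CPM in any of these libraries, and the receptor gene STE2 of a cells stayed between 6.78 and 9.38 CPM, while STE6, the a-factor transporter gene, was at 23.6 to 30.6 CPM. MF(ALPHA)2, the minor alpha-factor gene, was lower in LP118 (-1.25 ± 0.14). NDT80, the switch of meiosis, had 0 CPM in 5 of the 6 libraries and 0.602 CPM in LP085-Vc replicate 2.

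Genes of chromosome V were lower in LP118 and genes of chromosome IX were higher, on both arms of each. On chromosome V 236 of 304 tested genes were lower (77.6%) and 28 higher, with a median log2 fold change of -1.02, against 32.5% lower and a median of -0.04 on the other 14 nuclear chromosomes. On chromosome IX 178 of 227 tested genes were higher (78.4%) and 18 lower, with a median of 0.89, against 31.6% higher on the other chromosomes. The medians of those 14 chromosomes ran from -0.19 to 0.03. Left and right arms were alike on chromosome V (-1.02 and -1.01), and on chromosome IX they were 0.93 and 0.70. Taken in blocks of 15 consecutive tested genes with a position in the annotation, the 18 block medians of chromosome V lay between -1.48 and -0.54 and the 14 of chromosome IX between 0.42 and 1.33, so no block of either chromosome reached 0; the last 6 genes at the right end of chromosome V were too few for a block. RNA counts were the only measurement used here.

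**Figure D1:**
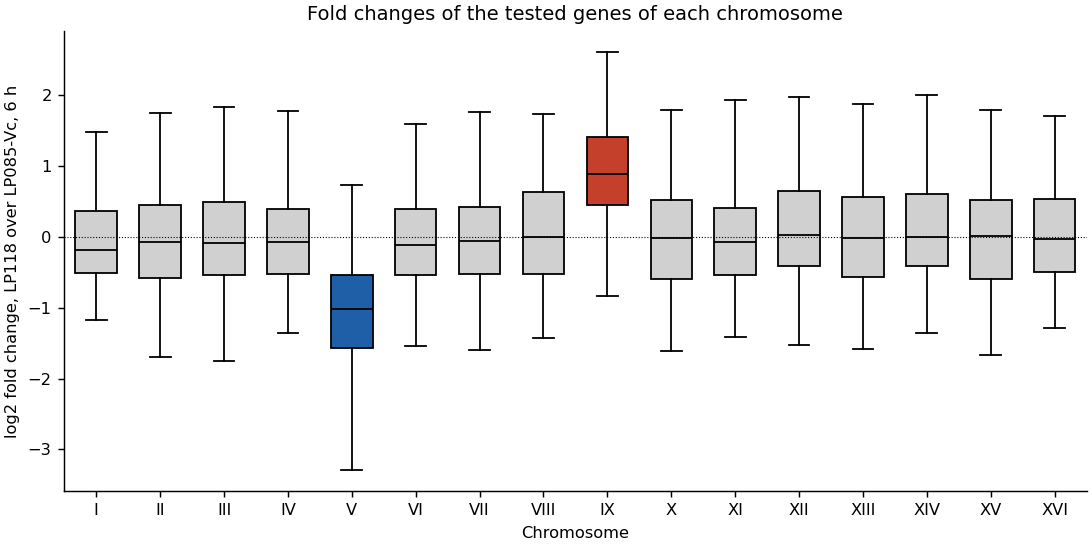
Log2 fold changes of LP118 over LP085-Vc at 6 h for the tested genes of each chromosome, with boxes from the lower to the upper quartile, a line at the median and whiskers at the outer 5% of genes on either side. Chromosome V has its median at -1.02 and chromosome IX at 0.89, while the other 14 medians lie between -0.19 and 0.03.

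The shift of both chromosomes was seen in each library. Chromosome V took 8.70% ± 0.0328 (SD, n = 3) of the counts in LP085-Vc and 4.93% ± 0.0314 in LP118 at 6 h, a ratio of 0.567. Chromosome IX took 2.36% ± 0.0234 and 5.05% ± 0.0705, a ratio of 2.14. The groups did not overlap, and each difference had a two-sided exact permutation p of 0.1, the smallest that 3 against 3 libraries allow. Other libraries of the same strains at 24 h had ratios of 0.562 for chromosome V and 1.76 for chromosome IX. In LP104-17 the shares at 6 h were 8.58% ± 0.0518 and 2.66% ± 0.00627, near those of LP085-Vc. Measured in single LP118 libraries at 6 h against the mean of LP085-Vc and relative to the other chromosomes, the median of chromosome V was -0.98, -1.0 and -0.89, and that of chromosome IX was 0.92 in all 3.

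**Figure D2:**
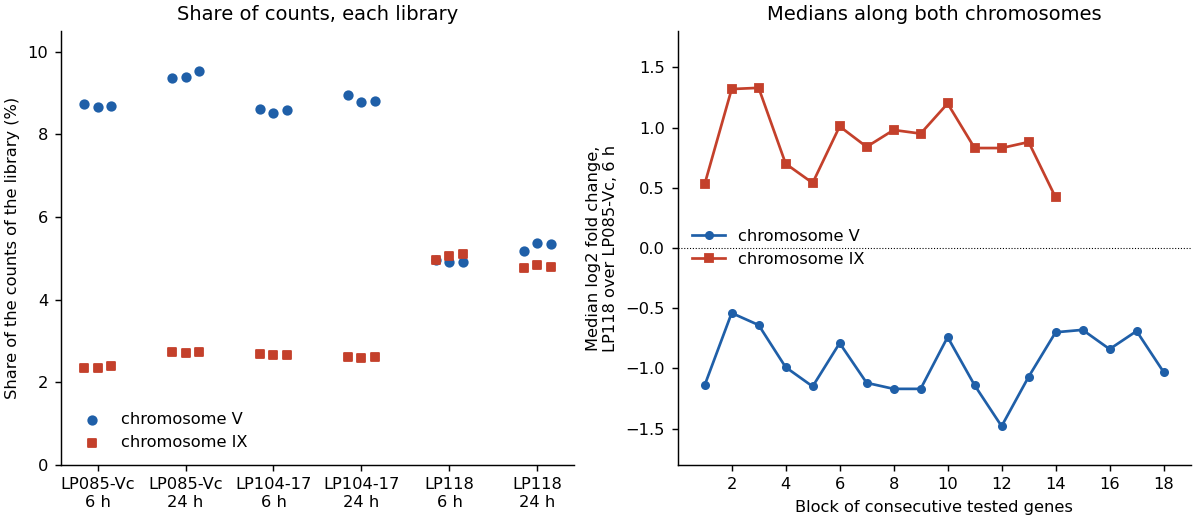
Left, the share of the counts of each of the 18 libraries that fell on chromosome V (circles) and chromosome IX (squares); right, the median log2 fold change of LP118 over LP085-Vc at 6 h in successive blocks of tested genes (15 in each block but the last of chromosome IX, which has 10). In the LP118 libraries both shares lie near 5%, and in all other libraries chromosome V lies above 8% and chromosome IX below 3%; all block medians of chromosome V are below 0 and all of chromosome IX above it.

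The spread of single genes around the chromosome's own median was like that elsewhere in the genome. Of the chromosome V genes 71.7% lay within 2-fold of that median, and so did 75.3% of the chromosome IX genes and 74.7% of the genes on the other chromosomes around theirs. The 5 largest rises among genes with chromosome V identifiers, against the shift of the chromosome, were those of URA3 and of 4 genes of ribosome assembly or import. NUG1, a GTPase gene of large subunit export, was at 89.4, 89.1 and 97.4 CPM in LP085-Vc and at 335, 338 and 298 CPM in LP118 (1.81 ± 0.08), which is 2.83 above the median of its chromosome. URA3, orotidine-5-phosphate decarboxylase, stood at 194, 219 and 200 CPM and at 699, 703 and 709 CPM (1.79 ± 0.09). KAP123, an importin gene for ribosomal proteins, rose by 1.67 ± 0.13, NSA2, of large subunit assembly, by 1.61 ± 0.11, and LCP5, of the small subunit processome, by 1.55 ± 0.11.

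The deepest fall of all tested genes, that of TIR1, was also on chromosome V. TIR1, a cell wall mannoprotein gene of cold and anaerobic growth, was at 2166, 1454 and 1400 CPM in LP085-Vc and at 5.19, 2.90 and 6.32 CPM in LP118 (-8.43 ± 0.26), although 17% of its sequence windows recur elsewhere in the genome. RGI1, a gene induced in respiratory growth, fell from 203, 369 and 252 CPM to 3.39, 1.04 and 3.83 CPM. CYC7, the iso-2 cytochrome c gene, fell by 5.14 on the log2 scale, SPI1, a cell wall protein gene of stationary phase, by 4.97, and GLC3, the glycogen branching enzyme gene, by 4.67. Set against the chromosome median of -1.02, the falls of TIR1 and SPI1 were -7.41 and -3.95, so they were far beyond the shift of the chromosome.

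Genes of ribosome assembly were also among the 5 largest rises on chromosome IX that had a symbol and reached 10 CPM. BMT5, a methyltransferase gene for the large ribosomal RNA, went from 5.59, 6.77 and 4.54 CPM to 90.4, 114 and 99.5 CPM (4.17 ± 0.17). FAF1 (small subunit assembly) and AIR1 (RNA surveillance) both rose by 3.68 in log2, UTP25 by 3.64 ± 0.11 and EFM4, a methyltransferase gene for an elongation factor, by 3.29 ± 0.14. A few genes of the chromosome went the other way. EMA17 was at 14.5, 29.5 and 19.3 CPM in LP085-Vc and at 2.59, 1.24 and 0.574 CPM in LP118 (-3.83 ± 0.47), and its log2 fold change was -4.53 without LP118 replicate 1. MET28, a regulator of sulfur genes, fell by 2.73 and was at -3.35 without LP118 replicate 3. YPS6, a yapsin protease gene, was at -2.06, PIG2, a phosphatase-targeting gene of glycogen synthesis, at -1.54, and RPI1, a transcription regulator gene, at -1.52.

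Ribosome assembly was higher in LP118 across its whole apparatus. In 5 lists for RNA polymerase I, small nucleolar ribonucleoproteins, the small subunit processome, the large subunit precursors and nucleolar helicases, 136 of 139 tested genes were higher, 0 lower and 3 not called, against 32.2% higher among all tested genes. Those 3 are the polymerase I initiation factor genes RRN5, RRN9 and RRN10, with log2 fold changes of -0.08, 0.16 and 0.02. The subunit genes of the polymerase moved with the rest: RPA190, the largest subunit, was at 87.9, 61.0 and 65.9 CPM in LP085-Vc and at 533, 556 and 554 CPM in LP118 (2.94 ± 0.15), and RPA135 rose by 2.99 ± 0.13. The initiation factor gene RRN11 had the largest rise of that list (3.29 ± 0.22), and the list median was 2.09.

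Nucleolar genes included the largest rises outside LEU2 and TRP1. NSR1, the yeast nucleolin, was at 27.6, 24.4 and 26.9 CPM in LP085-Vc and at 575, 792 and 623 CPM in LP118 (4.66 ± 0.13, adjusted p = 6.63e-16), with 57.7 CPM on average in LP104-17 at 6 h. DBP2, an RNA helicase gene, was at 25.6, 26.2 and 19.8 CPM and at 427, 582 and 477 CPM (4.38 ± 0.15), and DHR2, another helicase gene, rose by 3.89 ± 0.21. All 18 helicase genes were higher, with a median of 2.77. The 41 processome genes had a median of 2.50 and ran from RIO1 (0.90) to UTP25 (3.64), with RRP5 at 3.38 ± 0.20 and RRP12 at 3.33. The 42 large subunit precursor genes had a median of 2.58, led by the GTPase gene NOG2 (3.34 ± 0.14, 274 bases of it overlapping another gene) and RPF2 (3.27 ± 0.15).

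Within these lists, the members on chromosome V rose less than the median of their list. They were SNU13 (1.44), UTP7 (1.39), NOP16 (0.78), NSA2 (1.61) and NUG1 (1.81). The single members on chromosome IX lay above the median of their list in each case, with SHQ1 at 2.82, UTP25 at 3.64 and SQT1 at 2.87. Some members on other chromosomes lay further from the median of their list, with FPR3 (0.34) and RIO1 (0.90) below it and NSR1 (4.66) above it. The differences in change between members of a list were not tested.

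Ribosomal protein genes were higher by a smaller amount. Among 56 small subunit genes 53 were higher, 0 lower and 3 not called, and among 81 large subunit genes 73 were higher, 0 lower and 8 not called, with a median of 1.31 in each list. Genome duplication left most of these proteins with 2 gene copies, and the copies let chromosome position be compared for the same protein. RPS24A, on chromosome V, was at 634, 818 and 745 CPM in LP085-Vc and at 598, 966 and 865 CPM in LP118, and these ranges overlap (0.14 ± 0.16). Its copy RPS24B, on chromosome IX, was at 155, 186 and 203 CPM and at 1164, 1358 and 1273 CPM (2.80 ± 0.12). RPL34A on chromosome V and RPL34B on chromosome IX were 0.64 ± 0.10 and 2.61 ± 0.19. In the 4 pairs with 1 copy on chromosome V and the other on a chromosome outside these, the copy on V had the smaller log2 fold change in 4, and in the 3 such pairs with chromosome IX the copy on IX had the larger one in 3. RPL16A (IX, 2.77) and RPL16B (1.68), and RPL23B (V, 0.05) and RPL23A (1.28), are examples. Copies of these genes are close in sequence: 109 of 137 ribosomal protein genes have windows that recur elsewhere, and 12 have at least 50% of such windows, so the split of reads between copies is uncertain.

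The rest of the translation machinery went the same way, except in mitochondria. All 18 cytosolic aminoacyl-tRNA synthetase genes were higher (median 1.20), led by THS1 on chromosome IX (2.12 ± 0.11) and the lysyl enzyme gene KRS1 (1.91). Translation factor genes were 30 higher, 1 lower and 5 not called, with the scaffold gene TIF4631 at 2.05, the elongation factor gene YEF3 at 1.95 and the initiation factor gene NIP1 at 1.84. The lower gene was ANB1 (-1.09), the hypoxic copy of the factor eIF5A. Its aerobic copy HYP2 had 0 counts in all libraries and was not tested. How reads of these copies were counted is not labelled, so the 0 may come from the counting, and the value of ANB1 is uncertain. RNA polymerase III genes were 12 higher and 6 lower of 19, with the enzyme subunit genes RET1 (2.33), RPC82 (2.04) and RPO31 (1.8) rising most. The initiation factor genes went both ways, with TFC6 (-0.53) and TFC8 (-0.44) lower and TFC4 (0.32) and BRF1 (0.28) higher, and the repressor gene MAF1 fell (-0.69). Of 66 mitochondrial ribosomal protein genes 2 were higher, 33 lower and 31 not called (median -0.33), against 33.8% lower among all tested genes. The 2 higher ones were RSM22 (0.44) and, on chromosome IX, RSM25 (0.84), and the largest fall was that of RSM18 on chromosome V (-1.40).

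**Figure D3:**
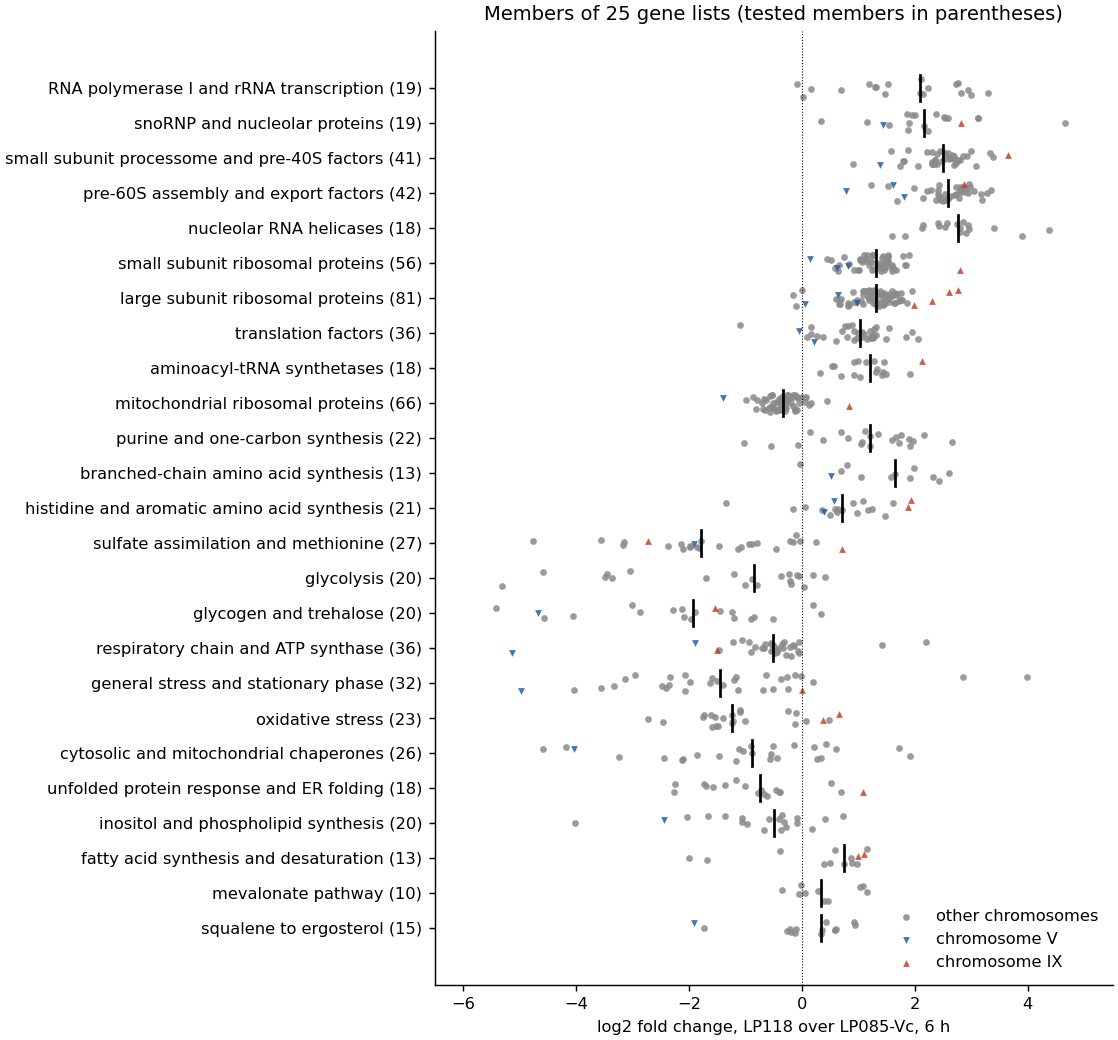
Log2 fold changes of LP118 over LP085-Vc at 6 h for the tested members of 25 gene lists, with a vertical bar at each list's median; triangles are genes of chromosome V (pointing down) and IX (pointing up), circles those of other chromosomes, and LEU2 and TRP1, with 0 and 3 counts in LP085-Vc, lie beyond the right edge. The ribosome assembly lists have medians of 2.09 to 2.77, and the glycogen and general stress lists have medians of -1.94 and -1.45.

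The promoter elements of these genes were shared beyond the windows printed above. PAC (searched as GCGATGAG) was present in 49.6% of the 139 windows of the 5 assembly lists and RRPE (AAAATTTT) in 73.4%, against 4.04% and 9.04% of all 5696 tested genes with a window. Among genes at least 2-fold higher on the other chromosomes the shares were 20.3% and 34.8%, and among those at least 2-fold lower they were 1.02% and 3.07%. Ribosomal protein genes had these elements rarely, with PAC in 0 of 56 small subunit windows and 1 of 81 large subunit windows. STRE (CCCCT) was in 42.2% of the windows of genes at least 2-fold lower, 10.2% of those at least 2-fold higher and 19.6% of all. On chromosomes V and IX as wholes the shares were near those of all genes, 2.90% and 4.39% for PAC and 23.9% and 22.9% for STRE. Both strands were searched, no motif contains another, and a match describes letters and not a bound site.

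**Figure D4:**
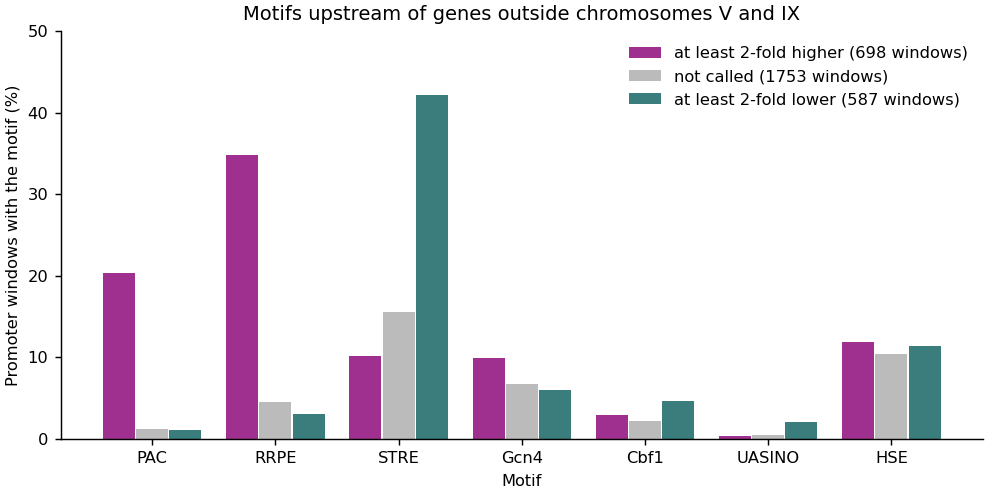
Share of promoter windows (250 bases) that hold each of 7 motifs, for genes outside chromosomes V and IX that were at least 2-fold higher in LP118, not called, or at least 2-fold lower. PAC and RRPE stand at 20.3% and 34.8% in the higher genes and at 1.02% and 3.07% in the lower ones, and STRE stands at 10.2% and 42.2%.

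TOD6, whose protein binds the PAC element and represses ribosome assembly genes, was itself among the genes that rose most. It was at 9.04, 5.72 and 7.78 CPM in LP085-Vc and at 144, 175 and 155 CPM in LP118 (4.40 ± 0.14). SYO1, the carrier of the ribosomal proteins of the 5S particle, rose by 3.53 ± 0.13, FUI1, the uridine permease gene, by 3.68 ± 0.12, and RFU1, an inhibitor of ubiquitin removal, by 3.64 ± 0.19. GFD2 went from 2.79, 4.06 and 2.46 CPM to 53.1, 82.9 and 69.7 CPM. SNZ1, of vitamin B6 synthesis, and NCE103, carbonic anhydrase, rose by 3.99 ± 0.12 and 3.50 ± 0.11.

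Nucleotide synthesis was higher in part. Purine and one-carbon genes were 18 higher, 2 lower and 2 not called (median 1.21), led by GUA1, GMP synthase, at 137, 126 and 125 CPM in LP085-Vc and 821, 869 and 741 CPM in LP118 (2.65 ± 0.10), and by the regulator gene BAS1 (2.16). Lower were IMD2 (-1.02), an IMP dehydrogenase gene, and ADE16 (-0.54), whose partner ADE17 rose (1.90). Among pyrimidine genes 7 of 12 were higher and 2 lower, with the marker gene URA3 counted among the higher. URA2, the entry enzyme of the pathway, was at 187, 112 and 137 CPM and at 1360, 1310 and 1468 CPM (3.25 ± 0.22, and 2.57 with the trend on coding length removed). URA7, a CTP synthase gene, rose by 3.24 ± 0.12 while its copy URA8 fell by 2.19, and URA5 rose by 0.89 while its copy URA10 fell by 2.91.

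Marker genes of laboratory strains differed as well. LEU2 had 0 counts in the 3 LP085-Vc libraries against 128, 117 and 128 CPM in LP118, which is at least 280-fold higher with a floor of 3 counts per library. TRP1 had 3 counts in LP085-Vc in all and 115, 109 and 132 CPM in LP118, a ratio of 810 (95% counting interval 277 to 3930). Its fitted change, which moved by over 1.5 times without LP085-Vc replicate 3, is not given. HIS3 rose by 1.24 ± 0.10 and LYS2 by 2.82 ± 0.30, LYS2 from 6.25, 5.72 and 7.91 CPM to 43.1, 49.8 and 48.2 CPM. URA3, described with chromosome V, rose by 1.79 ± 0.09. HIS3, LEU2, LYS2 and URA3 are the marker genes of the BY4742 background, while TRP1, MET17 and ADE2 are not among its markers. MET17 was lower (-3.56 ± 0.15), and ADE2 was not called (0.14). Intervals and floors cover counting error only.

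Branched-chain amino acid synthesis rose and sulfur assimilation fell. In the branched-chain list 12 of 13 genes were higher and 0 lower (median 1.65), LEU2 being counted among them. LEU1, isopropylmalate isomerase, was at 588, 503 and 487 CPM in LP085-Vc and 2978, 2915 and 2587 CPM in LP118 (2.43 ± 0.09), and LEU9, an isopropylmalate synthase gene, rose by 2.61 ± 0.10. The Gcn4 site (TGACTC) was in 61.5% of the windows of this list and in 7.06% of all, and GCN4 itself, on chromosome V, rose by 0.47 ± 0.12. Histidine and aromatic genes were 18 higher, 1 lower and 2 not called (median 0.71, TRP1 and HIS3 counted), with HIS5 and HIS6 on chromosome IX at 1.93 and 1.87. The lower gene ARO9 (-1.34) belongs to aromatic amino acid breakdown. Lysine genes were 2 higher, 3 lower and 4 not called, against 32.2% higher and 33.8% lower among all tested genes. LYS2 (2.82), a marker gene of BY4742 counted here, and LYS1 (0.35) were higher. LYS9 (-2.04), LYS20 (-0.82) and LYS5 (-0.40) were lower.

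In the sulfur list 21 of 27 genes were lower, 1 higher and 5 not called, with a median of -1.78. MET17, homocysteine synthase, was at 2256, 1939 and 1780 CPM in LP085-Vc and at 165, 180 and 163 CPM in LP118. STR3, cystathionine beta-lyase, was at 303, 240 and 224 CPM and at 12.4, 8.09 and 7.66 CPM (-4.77 ± 0.17), and MET3, ATP sulfurylase, fell by 3.16. The higher gene was MET30 (0.71) on chromosome IX, whose ubiquitin ligase restrains the pathway's activator. MET28, of the activator complex and also on chromosome IX, fell. The Cbf1 site (CACGTG) was in 37% of the windows of the list against 3.34% of all. LP104-17 at 6 h had 882 CPM of MET17 and 65.6 CPM of STR3 on average, between the other strains. Nitrogen catabolite genes were 7 higher and 13 lower of 23, against 32.2% higher and 33.8% lower among all tested genes. MEP2 (-2.47), AGP1 (-2.31) and GAP1 (-1.97), permease genes, fell most. The higher members were 4 allantoin genes of chromosome IX, DAL1, DAL2, DAL4 and DAL7 (0.52 to 1.20), and, on other chromosomes, CAR1 (1.64), CAR2 (0.73) and UGA3 (0.49), while DAL3 on chromosome IX fell (-1.13).

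Storage carbohydrate genes were lower without exception among those called. Of 20 genes of glycogen and trehalose 18 were lower, 0 higher and 2 not called, with a median of -1.94. GSY1, glycogen synthase, was at 1180, 960 and 956 CPM in LP085-Vc and at 28.1, 22.4 and 21.8 CPM in LP118 (-5.42 ± 0.12), with 565 CPM on average in LP104-17. The glycogen phosphorylase gene GPH1 was at -4.56 and the phosphoglucomutase gene PGM2 at -4.05, so genes of synthesis and of breakdown fell together. STRE was in 50% of the windows of this list.

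Within glycolysis the isoenzymes separated. Among 20 genes 13 were lower, 1 higher and 6 not called. TDH1 was at 7505, 7029 and 6326 CPM in LP085-Vc and at 156, 188 and 181 CPM in LP118 (-5.31 ± 0.12), while TDH3, the main glyceraldehyde-3-phosphate dehydrogenase gene, was at 19013, 17603 and 17475 CPM and at 16536, 18660 and 16609 CPM, which overlap (-0.06 ± 0.10). HXK1 (-4.58) and GLK1 (-3.46, overlapping another gene by 106 bases) fell far, and HXK2, the hexokinase of growth on glucose, by 0.23. ENO1 fell by 3.04 and ENO2 was not called (-0.20 ± 0.12). These gene copies share sequence, with 26.3% of the windows of TDH1 and 38.8% of those of ENO1 recurring elsewhere.

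Glucose transporter genes moved in both directions. HXT1 was at 342, 318 and 295 CPM in LP085-Vc and at 1128, 1158 and 1144 CPM in LP118 (1.84 ± 0.11), and HXT2 rose by 2.42 ± 0.14. HXT6, HXT7 and HXT4 fell, with log2 fold changes of -4.93, -4.72 and -3.93, HXT6 from 103, 123 and 103 CPM to 2.79, 3.32 and 4.59 CPM. HXT6 and HXT7 are near copies, with 95.7% of their windows repeated, and cannot be told apart. In all 9 transporter and sensor genes were lower, 2 higher and 9 not called. Ethanol and acetate genes had 4 higher and 7 lower of 16, against 32.2% higher and 33.8% lower among all tested genes. ADH2, the alcohol dehydrogenase of ethanol use, was at 2.10 ± 0.13 and ALD4, mitochondrial acetaldehyde dehydrogenase, at -2.61 ± 0.09. The glyoxylate and gluconeogenesis list was nearer to 0, with 6 lower, 0 higher and 8 not called and no change past -0.88.

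Respiration was modestly lower. Of 36 respiratory chain and ATP synthase genes 23 were lower, 2 higher and 11 not called (median -0.51), and of 18 tricarboxylic acid cycle genes 12 were lower, 3 higher and 3 not called (median -0.56). Among all tested genes 33.8% were lower. RIP1, of the cytochrome bc1 complex and on chromosome V, fell by 1.89, and SDH1 by 1.44. The 2 respiratory chain genes that rose were NDE1, the external NADH dehydrogenase gene (2.2 ± 0.10), and CYC1, iso-1 cytochrome c (1.42 ± 0.24), the latter opposite to CYC7. COX26, a small subunit gene of cytochrome oxidase, was at 14.6, 24.7 and 12.8 CPM in LP085-Vc and at 0, 1.24 and 0.957 CPM in LP118. Glycerol genes were 7 lower and 3 higher, and the copies of both enzymes of synthesis diverged: GPD1 fell by 3.12 and GPD2 rose by 0.22, GPP2 on chromosome V fell by 1.76 and GPP1 on chromosome IX rose by 2.08.

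Stress genes were lower as a group. In the general stress list 24 of 32 genes were lower, 2 higher and 6 not called (median -1.45), and STRE was in 56.2% of its windows. SPI1 was at 817, 924 and 835 CPM in LP085-Vc and at 27.7, 23.0 and 31.4 CPM in LP118, and FMP16 at 83.2, 133 and 116 CPM and 6.39, 5.80 and 7.85 CPM. The 2 higher members, SNZ1 and SNO1 (2.86 ± 0.18), make vitamin B6. Oxidative stress genes were 17 lower, 3 higher and 3 not called (median -1.23), with the peroxidase genes GPX1 (-2.73) and PRX1 (-2.46) lowest, and of the 3 that rose HYR1 (0.38) and GTT1 (0.65) lie on chromosome IX and CTA1 (0.48), peroxisomal catalase, elsewhere. MSN2 and MSN4, the factor genes themselves, were at -0.02 and -1.21, the former not called.

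Most chaperone genes fell, and the Hsp70 genes of the ribosome rose. Of 26 genes 18 were lower, 7 higher and 1 not called. HSP26, a small heat shock protein gene, was at 1060, 1213 and 1152 CPM in LP085-Vc and at 62.3, 61.0 and 66.4 CPM in LP118 (-4.17 ± 0.10). HSP30, a membrane protein gene of stress, fell by 4.59, and SSA4, a stress Hsp70 gene on chromosome V, by 4.04, with 2552, 2356 and 2658 CPM against 147, 150 and 164 CPM. SSB1 and SSB2, the Hsp70 genes whose proteins fold new chains at the ribosome, rose by 1.92 and 1.72, though 57.8% of the windows of SSB1 recur elsewhere. In the endoplasmic reticulum list 15 of 18 genes were lower and 3 higher (median -0.75), with SIL1 at -2.27, MPD1 at -2.24 and KAR2, the luminal Hsp70 gene, at -1.36 ± 0.09, while the sensor gene IRE1 was at 0.70. YRO2 (-5.07 ± 0.13), EGO4 (-4.90 ± 0.23) and VEL1 (-4.43 ± 0.17) were further genes with the largest falls.

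**Figure D5:**
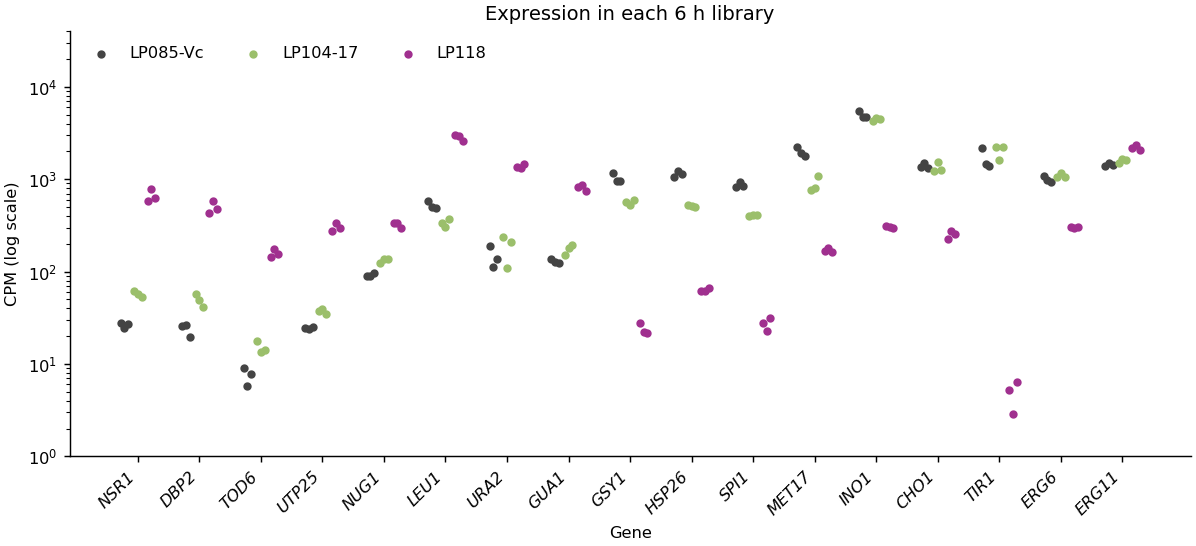
Expression in CPM (log axis) of 17 genes in each of the 9 libraries taken at 6 h, with 3 points per strain. NSR1 lies at 24.4 to 27.6 CPM in LP085-Vc and 575 to 792 CPM in LP118, TIR1 at 1400 to 2166 and 2.90 to 6.32 CPM, and ERG11, with a small rise, at 1398 to 1514 and 2069 to 2329 CPM.

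Phospholipid genes that answer to inositol were lower. INO1, inositol-3-phosphate synthase, was at 5414, 4685 and 4739 CPM in LP085-Vc and at 312, 303 and 299 CPM in LP118 (-4.02 ± 0.08, adjusted p = 9.49e-18), and at 4457 CPM on average in LP104-17. CHO1, phosphatidylserine synthase on chromosome V, was at 1350, 1495 and 1311 CPM and at 225, 278 and 258 CPM, and OPI3, a phospholipid methyltransferase gene, fell by 2.03 ± 0.09. In that list 15 of 20 genes were lower, 2 higher and 3 not called, and 55% of their windows held UASINO (CATGTGAA) against 0.913% of all. The activator genes moved apart, with INO4 at -1.67 and INO2 at 0.72. Fatty acid synthesis genes were mostly higher by contrast, with 10 of 13 higher and 3 lower (median 0.74), against 32.2% higher among all tested genes. Of the higher ones, FAA3 (1.0) and MGA2 (1.1) lie on chromosome IX. On the other chromosomes 8 of 11 were higher, with a median of 0.58. OLE1, the desaturase gene, was at 1.16 ± 0.09, and ELO1 (-1.68) and FAA1 (-2.0) were among the lower ones. Of 15 beta-oxidation genes 9 were lower and 1 higher, POT1 on chromosome IX (1.04).

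Sterol synthesis genes moved in both directions and by less. In the mevalonate list 6 of 10 genes were higher, 1 lower and 3 not called. ERG13, HMG-CoA synthase, was at 328, 285 and 276 CPM in LP085-Vc and at 642, 731 and 613 CPM in LP118 (1.16 ± 0.10), and IDI1 and MVD1 rose by 1.09 ± 0.12 and 1.03 ± 0.09. The reductase genes differed little, with HMG1 at 0.39 ± 0.14 and HMG2 at -0.35 ± 0.14. From squalene to ergosterol 8 of 15 genes were higher, 3 lower and 4 not called. For both lists, the shares among all tested genes were 32.2% higher and 33.8% lower. ERG11, the lanosterol demethylase gene, was at 1398, 1514 and 1425 CPM and at 2186, 2329 and 2069 CPM (0.60 ± 0.08), and ERG7 (0.94) and ERG2 (0.92) rose more.

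ERG6, the sterol C-24 methyltransferase gene of ergosterol's side chain, had the largest fall of that list outside chromosome V. It was at 1088, 983 and 942 CPM in LP085-Vc and at 305, 297 and 302 CPM in LP118 (-1.73 ± 0.08, adjusted p = 1.87e-13), and at 1093 CPM on average in LP104-17. The scaffold gene ERG28 of chromosome V was at 662, 925 and 760 CPM and at 210, 211 and 204 CPM (-1.91 ± 0.13). Partner genes of cytochrome P450 enzymes rose, with the reductase gene NCP1 at 0.53, the cytochrome b5 gene CYB5 at 0.86 and CBR1, on chromosome IX, at 1.09, while DAP1 fell (-0.90) and so did the sterol ester genes ARE2 (-0.73) and ARE1 (-0.37). The regulator gene UPC2 was at -0.32 ± 0.10. Of 9 heme genes 3 were higher and 4 lower, HEM13 among the latter (-1.22 ± 0.09), against 32.2% higher and 33.8% lower among all tested genes.

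Other lists had no common direction or a small one, and several lay near the shares of all tested genes, 32.2% higher and 33.8% lower. Proteasome genes, for example, were 36.4% lower. Cell wall genes were 11 higher and 5 lower of 19, with CWP1 at -3.33 ± 0.18 and the chitin synthase gene CHS3 at 1.23. The iron list had 7 higher, 4 lower and 8 not called, led by the ferroxidase gene FET3 (1.88 ± 0.11). Drug resistance genes were 3 higher and 4 lower of 12, phosphate genes 3 and 4 of 15, and thiamine genes 3 and 4 of 17. Proteasome genes were 12 lower, 3 higher and 18 not called, and the 3 deepest falls, PUP3, PRE1 and RPN3 (-1.39 to -1.06), lie on chromosome V while the largest rise, RPN2 (1.13), lies on chromosome IX. GAL7 fell by 2.02, while GAL1 and GAL10 were at -0.20 and -0.36. Histone genes were 6 lower, 0 higher and 4 not called, with no change past -0.76, and cell cycle genes were 10 higher and 5 lower of 20.

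Genes of sexual differentiation were not uniform either. SAG1, alpha-agglutinin, was at 302, 280 and 266 CPM in LP085-Vc and at 132, 125 and 134 CPM in LP118 (-1.12 ± 0.12), while the receptor gene STE3 was not called (0.14 ± 0.09). AFB1, also of the alpha-cell list, rose by 0.75 from 130, 118 and 115 CPM to 212, 203 and 196 CPM. Genes of haploid cells were 3 higher, 3 lower and 1 not called, against 32.2% higher and 33.8% lower among all tested genes. BAR1, an a-cell gene on chromosome IX, rose by 1.88 ± 0.24 from 6.08, 5.12 and 7.52 CPM to 24.9, 18 and 26.2 CPM, and the other 6 genes of its list were not called. Of 7 tested sporulation genes 5 were lower in LP118 and 1 was higher, with SPS4 at 29.9, 29.8 and 38.4 CPM in LP085-Vc and 2.39, 4.15 and 5.17 CPM in LP118 (-3.06 ± 0.26), and SPO11 fell by 2.70. In bulk RNA, fewer cells of a state and less RNA per cell cannot be told apart.

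The strain difference was set beside a change with culture time, measured in LP104-17 libraries that do not enter it. From 6 h to 24 h 70.9% of genes were called in LP104-17, 35.2% higher and 35.7% lower. Of the 1974 genes higher in LP118, 760 fell with time in LP104-17 (38.5%) and 695 rose (35.2%), and of the 2075 genes lower in LP118, 711 fell (34.3%) and 849 rose (40.9%), so both shares stood near those of all genes. Across 6131 genes Pearson's r between the log2 changes was -0.04 and Spearman's rho -0.06, given as a description, since genes are not independent. Single genes differ in this respect: NSR1 rose in LP104-17 with time by 0.66 and TOD6 by 2.64, GSY1 fell by 1.13, and SPI1, lower in LP118, rose by 2.97.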

How the data were processed

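The deposited tables list 6600 genes per library with raw whole-number read counts, per the file headers, and with the authors' FPKM, per the file headers. In 1 table the FPKM column repeats the header of the counts, and it was identified by its values. The submitters' processing notes name Bowtie2 2.2.5 and build R64. How reads were counted, and whether by strand, is not stated in the labels or headers, so overlapping genes and close copies are uncertain. Identifiers were matched to RefSeq R64 (5917 of 6600, 89.7%); 683 had no match.

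The test on counts was the quasi-likelihood test of edgeR 4.0.16 (R 4.3.3), from 1 fit of all 18 libraries with 6 group means and 12 residual degrees of freedom; TMM factors were 0.914 to 1.11. filterByExpr (minimum count 10, minimum total 15) kept 6131 genes and removed 469. Tests were two-sided with Benjamini-Hochberg adjustment over all tested genes, and fold changes use a prior count of 0.125. Shares of counts were compared by exact permutation over libraries. The alternatives were a fit of the 2 groups, DESeq2 1.42.0 and its size factors, TMM without chromosomes V and IX, no filter, a replicate block, removal of the trend with coding length, limma 3.58.1 on log2(FPKM + 1) and log2(FPKM + 0.1), and each library left out. The fit was also run on simulated data of known change, and its recovery is not given here. Python 3.11.15, pandas 2.3.3, SciPy 1.17.1 and matplotlib 3.10.9 were used for tables and figures.

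Same-numbered libraries of the strains had correlations of 0.0175, 0.0927 and -0.0679, so the numbers were not taken as pairs. The members and the 53 gene lists (1091 tested genes) were chosen with earlier results of these data known. RPP1, of RNase P, and MRP8 match the name patterns of ribosomal protein lists and were removed. Named genes outside chromosomes V and IX are the 12 largest rises and 12 largest falls among called genes that have a symbol, reach 10 CPM in 1 group and do not overlap between groups; on chromosomes V and IX they are the 5 largest each way. From each list, the 3 largest changes, members opposed to the list and members whose function is described may be named. FMP16, PGM2, LEU9 and MET17 are the list members with the largest change on other chromosomes whose window holds the motif.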

Additional observations from a re-analysis of the deposited data

How the results depend on the processing

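The comparison called 3757 to 4203 genes over 15 alternative settings, against 4049, and the share of higher calls among them ran from 44.7% to 51%, against 48.8%. The called genes were not all the same. With the coding length trend removed 4203 genes were called, and 3738 of them had the same call and direction in the main fit. Without LP085-Vc replicate 2 these were 3685 of 3757, the fewest of any setting. On log2(FPKM + 1) the median of all genes was -0.09, against -0.04. The median of chromosome IX minus that of the other chromosomes was 0.922; it was 0.911 without the filter on low counts, 0.954 with the coding length trend removed, 0.909 on log2(FPKM + 1), and 0.916 to 0.956 with 1 library left out. That of chromosome V, -0.982, ran from -0.985 to -0.957 with 1 library left out. For chromosome V it was -0.991 without the filter on low counts, -0.962 with the coding length trend removed and -0.942 on log2(FPKM + 1). With 1 library left out the comparison called 3757 to 4013 genes. With the replicate block 4049 genes were called, 1980 higher and 2069 lower, 236 lower on chromosome V and 178 higher on chromosome IX, and no call of the named genes changed; the replicate numbers are labels only. Of 2700 values of 180 single genes, 2696 kept direction and call. The exceptions were GAL3 without LP085-Vc replicate 1 (adjusted p = 0.0761, edgeR) or without LP118 replicate 2 (0.0737), and MRP2 without LP085-Vc replicate 2 (0.185) or LP118 replicate 1 (0.0981); the cause was not tested. On log2(FPKM + 1) GFD2 was at 3.79, LYS2 at 2.18 and HXT7 at -4.13, and on log2(FPKM + 0.1) COX26 was at -5.86. Totals of 5117869 to 7548113 counts per library leave genes of a few CPM with few counts, and their values are the least certain.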
